A study of Ovis aries with 12 samples.

Results

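The cytosolic ribosomal protein genes encode the protein part of the ribosome outside mitochondria. They were taken as every row of the deposited gene table whose symbol begins with RPL or RPS and a number, together with the stalk genes RPLP0, RPLP1 and RPLP2 and the laminin receptor gene RPSA, and without the RPS6 kinases. This gave 78 of the 33609 rows, 45 of the large and 33 of the small subunit, under 77 symbols because RPS26 has 2 rows. All 78 passed the filter on low counts, as did 17806 rows in all. Symbols for RPL17, RPL39 and RPL41 matched no row and were not analysed here. RPL23, RPL34 and RPL10L are listed under placeholder names and are given at the end.

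The ribosome translates messenger RNA into protein and is built from a large subunit, which forms the peptide bond, and a small subunit, which reads the message. Each ribosome carries about equal amounts of most of its proteins. Most ribosomal protein messengers begin with a terminal oligopyrimidine (TOP) tract through which the TOR kinase and the binding protein LARP1 set their translation. In neurons, ribosomal protein messengers are also found in axons and dendrites.

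The RNA was hippocampal and the donors were adult ewes of the Ile-de-France sheep breed. There were 4 groups of 3 libraries: dorsal hippocampus under chronic stress, dorsal hippocampus of control ewes, ventral hippocampus under chronic stress and ventral hippocampus of control ewes. Each condition had 6 ewes, each library pooled RNA of 2 of them, and both regions were taken from the same animals, so single ewes cannot be seen and p-values measure the spread between pools. What the stress consisted of is not given in the sources used here. Libraries held 12254743 to 53775720 counts. In dorsal tissue depth was parted by condition, with 12254743 to 21244822 counts in stress and 24952808 to 53775720 in control libraries. In ventral tissue the conditions overlapped in depth.

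Markers of hippocampal excitatory neurons (7 of 7 measured, among them SLC17A7, PROX1 and WFS1) were present in every library, at summed levels of 4113 to 4437 CPM in dorsal stress, 3729 to 3770 CPM in dorsal control, 2479 to 3314 CPM in ventral stress and 2512 to 2979 CPM in ventral control libraries. CPM is a count relative to library size, here with TMM scaling. It is not divided by transcript length, so levels are compared between libraries and not between genes. Of the inhibitory neuron markers, SST had no count in any library.

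Ribosomal protein genes took between 2.80% and 6.80% of all counts, a 2.43-fold range that lay within a single group. The share was 5.92%, 4.03% and 3.28% in dorsal stress libraries 1 to 3, against 6.51%, 4.14% and 4.74% in dorsal control libraries 1 to 3. It was 4.45%, 5.51% and 2.86% in ventral stress libraries 1 to 3, against 6.80%, 5.27% and 2.80% in ventral control libraries 1 to 3. All 4 groups overlapped, and the highest and the lowest library of the study were both ventral control. Group means were 4.41 ± 1.36% in dorsal stress, 5.13 ± 1.23% in dorsal control, 4.28 ± 1.33% in ventral stress and 4.96 ± 2.02% in ventral control (SD, n = 3 each), so the distance between any of the means was smaller than the SD of a group. Counting error was small beside this spread: in the shallowest library, dorsal stress 3, the exact Clopper-Pearson 95% interval ran from 3.273% to 3.293%. Fewer cells rich in ribosomes and less ribosomal protein messenger per cell cannot be told apart in tissue RNA.

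**Figure D1:**
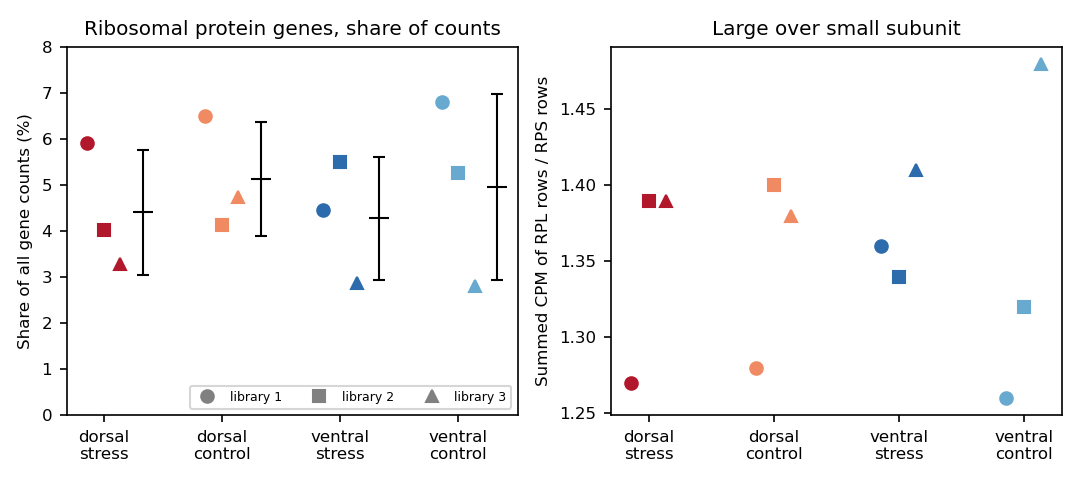
Left, percent of all gene counts that fell on the 78 ribosomal protein rows, 1 point for each library, with the mean and SD of the 3 libraries of a group as bars; right, summed CPM of the large subunit rows divided by that of the small subunit rows. The groups overlap in both panels, the share runs from 2.80% to 6.80%, and the library with the highest share has the lowest ratio (1.26) while the library with the lowest share has the highest (1.48).

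The rows moved together from library to library. Summed over the family, levels ran 62560, 39120 and 32870 CPM in dorsal stress libraries 1 to 3, against 68930, 40130 and 46210 CPM in dorsal control. In ventral tissue they ran 42990, 54270 and 28280 CPM under stress, against 74250, 51780 and 27200 CPM in control. In 60 of the 78 rows the 3 libraries of every group stood in the same order as this sum. Over all genes tested 13.3% did so (2374 genes), and 12.5% stood in exactly the opposite order in every group, which none of the 78 did. These 60 were 32 of the 45 large subunit rows and 28 of the 33 small subunit rows. The sum is made of these rows, so the count describes them and is no test.

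How far a row spread within its group differed widely among the members. The within-group SD of log2 CPM had a median of 0.544 over the members, with quartiles of 0.445 and 0.708. Over all genes tested the median was 0.499, and 44.9% of genes had an SD above the members' median. Many genes outside the family are scarce, and among the 6945 genes at least as abundant as the lowest member other than RPL3L the median was 0.361, against 0.541 for those members. Of the variance of a member's log2 CPM, a median of 91.8% lay within groups, against 83.9% for all genes.

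**Figure D2:**
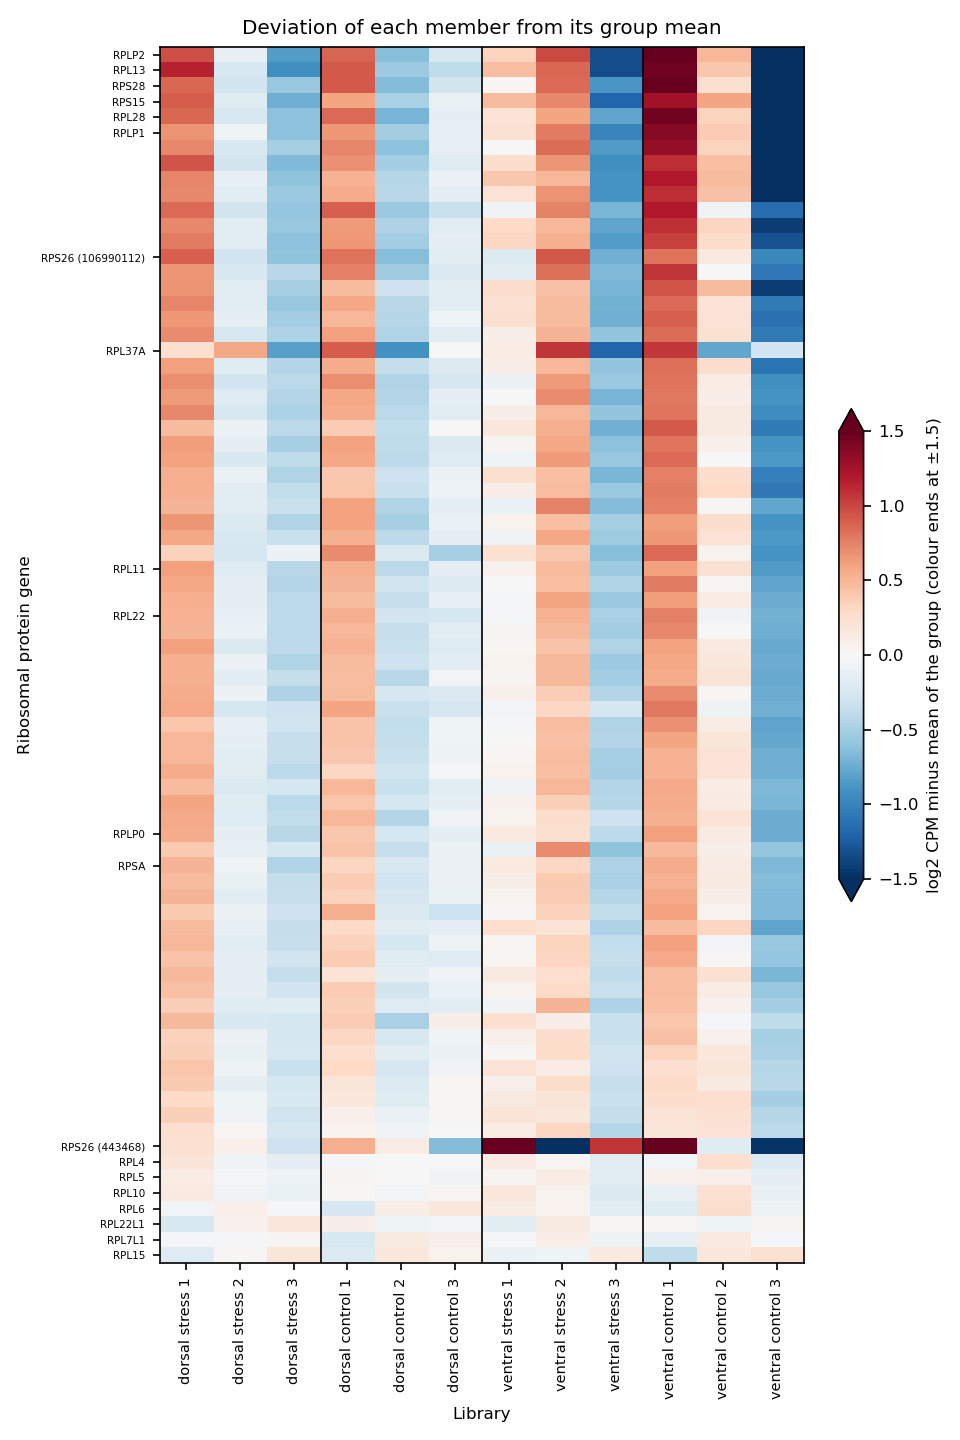
Deviation of each ribosomal protein row from the mean of its group in log2 CPM, with members down the page from the steepest to the least steep follower of the family and the 12 libraries across, in groups parted by black lines and some of the rows labelled; colours end at 1.5 either way. Most rows share one pattern of high and low libraries, strongest in RPLP2, RPL13 and RPS28, while RPL15 at the bottom runs the other way and the RPS26 row 443468 has a pattern of its own.

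Of the 3 stalk genes, RPLP1 and RPLP2 spread widely and RPLP0 less. RPLP0 anchors the stalk of the large subunit, and RPLP1 and RPLP2 are the acidic proteins bound to it that recruit elongation factors. RPLP2 stood at 602, 283 and 172 CPM in dorsal stress libraries 1 to 3, against 676, 237 and 313 CPM in dorsal control. In ventral tissue it stood at 321, 508 and 102 CPM under stress, against 907, 364 and 51.5 CPM in control, a 17.6-fold range within the ventral control group alone. RPLP1 spanned 8.62-fold and RPLP0 2.55-fold in that group, so the 3 parts of one structure did not keep a fixed ratio of messengers between libraries. The within-group SD was 1.35 for RPLP2, 1.02 for RPLP1 and 0.490 for RPLP0.

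Other members with an SD above 1 were RPL13, RPL28, RPS15, RPS28 and the RPS26 row 443468, which with RPLP1 and RPLP2 make 7. RPL13, a large subunit protein, stood at 943, 360 and 223 CPM in dorsal stress, against 940, 342 and 384 CPM in dorsal control libraries. In ventral libraries it stood at 578, 764 and 167 CPM under stress, against 1122, 540 and 113 CPM in control. Library 1 led in every group but ventral stress, where library 2 did. The small subunit proteins RPS15 and RPS28 spanned 8.59-fold and 9.58-fold within ventral control. For each doubling of the summed level of the other members within groups (12 libraries, a description), RPLP2 differed by 2.49, RPL13 by 2.28, RPS28 by 2.01 and RPS15 by 1.98 on the log2 scale. Such slopes were above 1.5 in 13 members, between 0.5 and 1.5 in 55 and below 0 in 4.

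Near the middle were most of the small subunit and much of the large. RPSA, which assembles into the small subunit and is also known as a laminin receptor, lay between 373 and 909 CPM with a slope of 0.86. RPS27A, made as a fusion with ubiquitin, lay between 573 and 1512 CPM with a slope of 0.99. RPS6, the substrate of the S6 kinases, lay between 371 and 944 CPM with a slope of 0.849. RPL13A, which also acts in translational silencing of inflammatory messengers in human cells, lay between 252 and 1288 CPM with a slope of 1.42. Of the genes that are X-linked in humans, RPS4X had an SD of 0.490, RPL36A 0.682 and RPL10 0.156.

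A few large subunit genes barely followed the family. The 6 members with an SD under 0.2 were RPL5, RPL7L1, RPL22L1, RPL10, RPL4 and RPL6, all of the large subunit. RPL5, which binds 5S ribosomal RNA together with RPL11 and with it restrains MDM2 in human cells, had the smallest SD, 0.106. It stood at 620, 562 and 546 CPM in dorsal stress libraries 1 to 3, against 654, 636 and 612 CPM in dorsal control. In ventral libraries it stood at 541, 567 and 471 CPM under stress, against 543, 549 and 474 CPM in control. Its partner RPL11 moved with the family and had an SD of 0.585, from 310 CPM in ventral control 3 to 875 CPM in dorsal control 1.

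RPL15, a large subunit protein, ran against the others. It stood at 581, 671 and 756 CPM in dorsal stress libraries 1 to 3, against 549, 709 and 656 CPM in dorsal control. In ventral libraries it stood at 679, 690 and 796 CPM under stress, against 501, 732 and 765 CPM in control. In 3 of the 4 groups its libraries stood in exactly the reverse of the family's order, the exception being ventral stress, and its slope was -0.358.

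**Figure D3:**
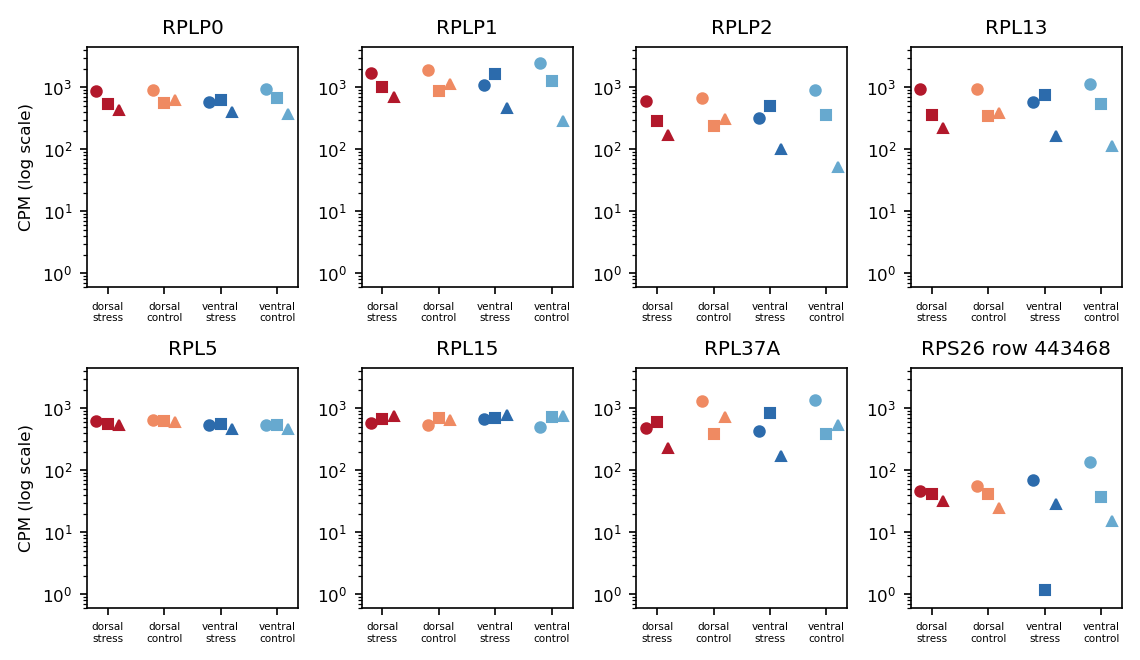
CPM on a log axis of 8 ribosomal protein rows in each library, with circles, squares and triangles for libraries 1, 2 and 3 of a group. The stalk proteins widen from RPLP0 to RPLP2, RPL5 and RPL15 stay within narrow bands, and the RPS26 row 443468 has 1 library, ventral stress 2, at 1.19 CPM.

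Some members are paralogs of others, with expression that is more restricted or set by other signals. RPL3L, a copy of RPL3 that replaces it in heart and skeletal muscle of mice and humans, had 7 to 64 counts, or 0.224 to 1.26 CPM. RPL22L1, the copy of the RNA-binding protein RPL22, lay between 21.0 and 32.5 CPM with a slope of -0.0575, while RPL22 had a slope of 1.01. RPL26L1 lay between 34.2 and 78.2 CPM with a slope of 0.805, against 0.468 for RPL26. RPS27L, induced by p53 in human cells, lay between 24.2 and 56.5 CPM, and its slope of 0.728 stood beside 0.877 for RPS27. RPL7L1, a relative of RPL7 that acts in the assembly of the large subunit in human cells, lay between 64.0 and 83.5 CPM with an SD of 0.132.

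Some rows had patterns that the family did not share. RPS26 lines the path of messenger RNA through the small subunit, and its 2 rows are GeneID 443468 and GeneID 106990112. The row 443468 held 30 counts in ventral stress library 2, or 1.19 CPM, against 71.2 and 28.8 CPM in ventral stress libraries 1 and 3. It held 0.367% of the counts of both rows in that library, and 10.4% to 32.8% in the other libraries. The row 106990112 stood at 322 CPM in ventral stress library 2, where it followed the family's order as in every other group. How reads that match both rows were counted is not given in the sources used here, so the division between them is uncertain, as it is between any ribosomal protein gene and its processed pseudogenes. RPL37A also left the common order in 2 groups. It stood at 477, 604 and 230 CPM in dorsal stress, against 1337, 380 and 715 CPM in dorsal control libraries, and at 428, 832 and 173 CPM in ventral stress, against 1366, 384 and 540 CPM in ventral control libraries.

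Summed levels of other gene sets were set beside that of the family. Mitochondrial ribosomal proteins (74 tested) had summed levels of 2302 to 5540 CPM and respiratory chain and ATP synthase genes (56 tested) 7129 to 17180 CPM. Both sums stood in the family's order in all 4 groups, as did 35 of the 74 and 35 of the 56 single genes, against 13.3% of all genes tested. Initiation factors (39 tested), which bring messenger and ribosome together, had sums of 6712 to 7236 CPM, but single factors went both ways. In all 4 groups 4 of 39 stood in the family's order, against 13.3% of all genes tested. The opposite order was held by 7, against 12.5%, so both counts were near the shares of all genes. EIF4E, which binds the cap of messenger RNA, had a slope of -1.62 and EIF4EBP1, which restrains it, 1.58. EIF4EBP1 was scarce, at 1.18 to 9.88 CPM, and stood in the family's order in 2 groups. Its relative EIF4EBP2 was more abundant, at 87.3 to 121 CPM, and had a slope of -0.229. Sums of ribosome assembly genes (35 tested) spanned 1775 to 2166 CPM. Regulators of TOR and S6 kinase (24 tested) spanned 1184 to 1473 CPM. Single genes of these lists went both ways too. In all 4 groups 4 of 35 assembly genes and 2 of 24 regulators stood in the family's order, against 13.3% of all genes tested. The opposite order was held by 3 of 35 and 3 of 24, against 12.5%.

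**Figure D4:**
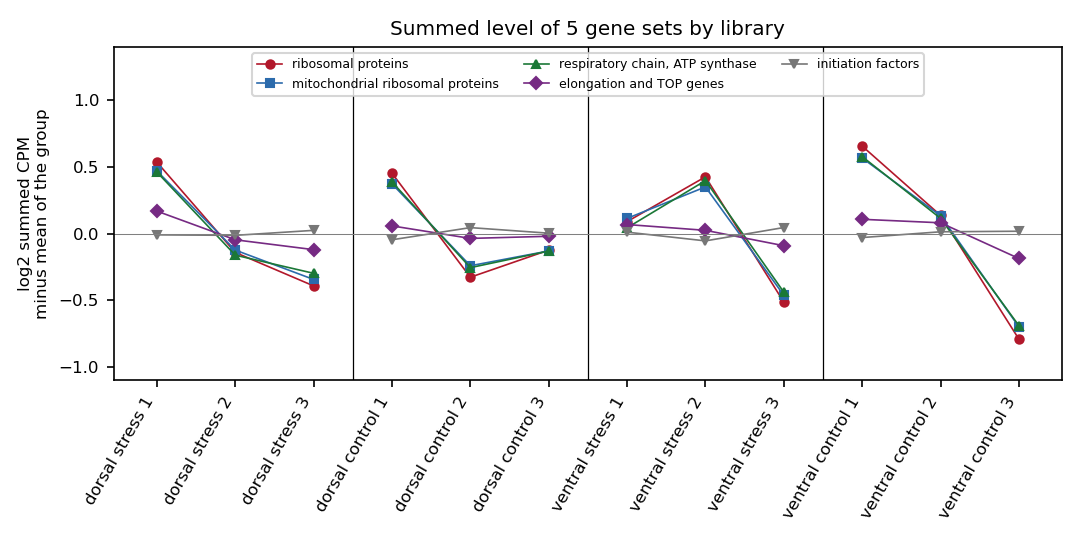
Log2 of the summed CPM of 5 gene sets in each library, minus the mean of the 3 libraries of its group. Ribosomal proteins, mitochondrial ribosomal proteins and the respiratory chain with ATP synthase run together, from 0.66 above to 0.79 below the mean for the ribosomal proteins in ventral control, while the sum of the initiation factors, whose single genes go both ways, stays near 0 in every library.

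The list of elongation factors and TOP messengers was split, and which of its genes carry the TOP tract was not tested. Its sum lay between 9086 and 11690 CPM. FAU, which encodes a small subunit protein fused to a ubiquitin-like protein, followed the family in all 4 groups with a slope of 1.19. EEF1D, a subunit of the elongation factor 1 complex, did so with a slope of 1.85. EEF1A1, which delivers aminoacyl-tRNA to the ribosome, went the other way with a slope of -0.908. It stood at 1220, 1840 and 2230 CPM in dorsal stress, against 1210, 2100 and 1970 CPM in dorsal control libraries. In ventral libraries it stood at 1880, 1310 and 2370 CPM under stress, against 937, 1860 and 2390 CPM in control. The elongation factor EEF2 (slope -0.0405) and the scaffold RACK1 (0.353), which sits on the small subunit, were closer to level.

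Depth and cell type markers were set beside this pattern. Library totals stood in the family's order in 1 group, dorsal stress, and in the opposite order in 1, ventral stress. Of the marker lists none stood in the family's order in all 4 groups. Those of microglia (6 of 7 measured, 236 to 335 CPM), endothelium (5 of 5, 155 to 214 CPM) and ependyma (5 of 5, 69.3 to 177 CPM) did so in 3, erythrocytes (2 of 5, 0.360 to 4.35 CPM) in 2 and choroid plexus (6 of 6, 52.8 to 2842 CPM) in 1. Excitatory and inhibitory neurons (5 of 6, 258 to 433 CPM), oligodendrocytes (6 of 6, 3691 to 10640 CPM), astrocytes (6 of 6, 10820 to 15410 CPM), meninges (6 of 6, 127 to 583 CPM) and pituitary (5 of 6, 3.75 to 151 CPM) did so in none. The first principal component of the within-group deviations of all other tested genes held 66.1% of that variance. Its scores were 77.3, -19.8 and -57.4 in dorsal stress, 64.4, -44.0 and -20.4 in dorsal control, 12.1, 52.7 and -64.8 in ventral stress and 96.4, 15.2 and -112 in ventral control libraries. The pattern was thus not confined to ribosomal proteins, and the part of RNA quality or library preparation in it was not tested.

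No ribosomal protein gene was called between dorsal and ventral hippocampus. In the edgeR fit of all 12 libraries, over both conditions, 0 of 78 members had an adjusted p under 0.05, against 4.51% of all genes tested, and 0 had an unadjusted p under 0.05, against 13.7%. DESeq2 and limma-voom also called 0, with 1 and 0 members at an unadjusted p under 0.05. The median log2 fold change was 0.06, with members between -0.20 and 0.34 and a median SE of 0.29, and 58 of 78 values were positive, against 47.3% of all genes, whose median was -0.02. Dorsal libraries were also set against ventral ones of the same condition. In 0 members were they all above in both conditions, or all below in both, against 2.7% and 3.67% of all genes. In control ewes 0 were called, against 1% of all genes, the median was 0.01 with 43 values positive, against 44.2%, and 0 members had an unadjusted p under 0.05, against 8.67%. In stressed ewes 0 were called, against 0.444%, the median was 0.11 with 68 values positive, against 51.1%, and 0 members had an unadjusted p under 0.05, against 7.86%. DESeq2 and limma-voom called 0 in each condition, with 1 member at an unadjusted p under 0.05 in DESeq2 in control ewes. Without dorsal stress library 1 the median over both conditions was -0.10 and without ventral control library 1 it was 0.25, so its sign rests on single libraries. The same held within conditions: in control ewes the median was -0.30 without ventral control library 3, with 70 members negative, and 0.38 without ventral control library 1, with 2 negative, and in stressed ewes it was -0.20 without dorsal stress library 1, with 75 negative. Markers of other cells differed between the regions over both conditions. In dorsal tissue edgeR called 4 of 6 meninges and 2 of 5 inhibitory neuron markers lower. It called 2 of 6 choroid plexus, 2 of 7 excitatory neuron and 1 of 6 oligodendrocyte markers higher. The choroid plexus list was divided, with 3 values positive and 3 negative. Of the excitatory neuron markers 6 were positive and 1 negative, and of the oligodendrocyte markers all 6 were positive. The part of all these markers in the values of the members was not tested.

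RPL5 came closest to a regional difference. Its levels, given above, did not overlap between regions in control ewes, where all 3 dorsal libraries were above all 3 ventral ones, against 5.44% of all genes; 0 members were parted the other way, against 6.22%. In stressed ewes ventral library 2 lay above dorsal libraries 2 and 3. Its log2 fold change was 0.21 ± 0.10 over both conditions (SE, edgeR adjusted p = 0.444, unadjusted p = 0.0710), 0.28 ± 0.14 in control ewes (adjusted p = 0.710) and 0.13 ± 0.14 in stressed ewes (adjusted p = 1). RPL7L1 was lower in all 3 dorsal than in all 3 ventral libraries of stressed ewes, against 7.68% of all genes in that direction and 0 members against 6.07% in the other, with a log2 fold change of -0.15 ± 0.16 (edgeR adjusted p = 1).

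Other members with small p-values or extreme values were also far from the threshold over both conditions. RPL22L1 had a log2 fold change of -0.19 ± 0.12 (edgeR adjusted p = 0.656) and RPL4, whose loop lines the exit tunnel of the large subunit, 0.17 ± 0.12 (adjusted p = 0.719). The highest value was 0.34 ± 0.43 for RPL3L, and the lowest was -0.20 ± 0.73 for the RPS26 row 443468. In control ewes RPL3L had 0.55 ± 0.60 and the RPS26 row 443468 -0.63 ± 1.04, and in stressed ewes RPS28 had 0.36 ± 0.75 and RPL22L1 -0.25 ± 0.17. RPS21, a small subunit protein, had -0.21 ± 0.64 in control ewes and 0.35 ± 0.64 in stressed ewes, each of these with an edgeR adjusted p of 1.

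With the first within-group component of the other genes as a covariate, 8 members were called between regions, all higher in dorsal tissue. The covariate takes out spread within groups, and the fit did not count the degrees of freedom that its estimation used, so these p-values are too small. Among the 8 were RPL5 (0.21, edgeR adjusted p = 0.0179), RPS28 (0.32, 0.0200), RPS13 (0.25, 0.0227), RPS16 (0.21, 0.0259), RPS19 (0.19, 0.0303) and RPS7 (0.25, 0.0453), and 3 of the 8, RPL5 among them, were called in control ewes. The share of 8 in 78 was below the 21.1% of all genes called in that fit, and 3 in 78 below its 11.2% in control ewes. With the component taken over all 12 libraries, a covariate chosen after seeing the data, 2 members were called, against 20.2% of all genes, among them RPL5 (0.20, edgeR adjusted p = 0.0261). RPL5 was called in both fits in control ewes too (adjusted p = 0.0360 and 0.0468), the second against 10.6% of all genes. In stressed ewes both fits called 0 members, against 8.92% and 8.85% of all genes.

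**Figure D5:**
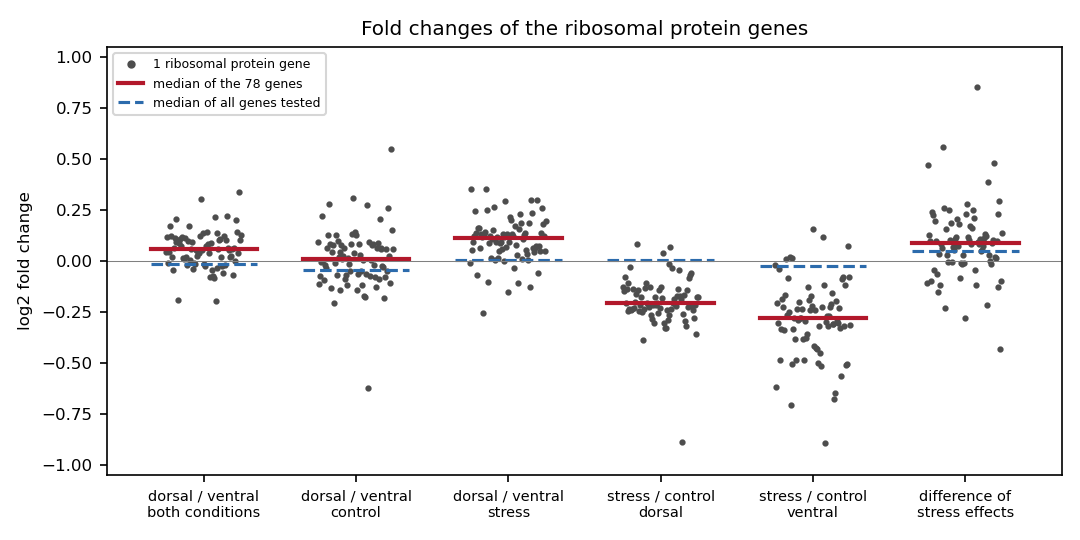
Log2 fold changes of the 78 ribosomal protein rows in 6 comparisons (1 point a row), with the median of the rows as a red line and the median of all genes tested as a dashed blue line. Medians lie between 0.01 and 0.11 in the regional comparisons and at -0.21 and -0.28 in the stress comparisons of dorsal and ventral tissue; no point passed the edgeR threshold.

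No ribosomal protein gene was called between chronic stress and control in either region, although nearly all values pointed one way. In dorsal hippocampus 75 of 78 log2 fold changes were negative, against 49% of all genes, with a median of -0.21 and a median SE of 0.41. In ventral hippocampus 72 were negative, against 54.4%, with a median of -0.28 and a median SE of 0.41. In both regions edgeR, DESeq2 and limma-voom called 0 members, 0 had an unadjusted p under 0.05 with any of the 3, and 0 were parted between the groups, against 2.38% of all genes higher and 2.76% lower in dorsal tissue and 1.38% and 1.49% in ventral tissue. Over all genes edgeR called 0% in either region, with 0.854% and 0.797% at an unadjusted p under 0.05 in dorsal and ventral tissue. The members rise and fall together within groups, so the number that share a sign is not a count of independent genes.

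The direction in the stress comparisons rested on 1 library in each region. Without dorsal control library 1 the median was 0.08 in dorsal tissue, and 26 members were negative. Without dorsal stress library 1 it was -0.53. Without ventral control library 1 the median was 0.07 in ventral tissue, with 22 members negative, and without ventral control library 3 it was -0.60. The component over all libraries is not taken within groups, so as a covariate it can also take up a group difference. With it the medians were -0.04 and -0.05, and 1 and 9 members had an unadjusted p under 0.05, against 4.05% and 5.92% of all genes. With the within-group component these were 29 in dorsal and 36 in ventral tissue, against 10.4% and 12%, and in both fits edgeR called 0 members, against 0% of all genes. Levels of some marker lists differed beside these values, though edgeR called 0 markers under stress in either region. In dorsal tissue pituitary markers stood at 4.63 to 10.95 CPM in stress and 111 to 151 CPM in control libraries, and those of choroid plexus at 372 to 968 CPM in stress and 653 to 2842 CPM in control libraries. In ventral tissue 5 of 5 pituitary, 5 of 5 ependyma and 5 of 6 oligodendrocyte markers had negative log2 fold changes, with medians of -1.30, -0.37 and -0.40. TTR of the choroid plexus had -2.03 and GFAP of astrocytes -0.45 there (edgeR unadjusted p = 0.0475 and 0.0432, adjusted p = 1 for both). Their lists as a whole did not go that way. Of the choroid plexus markers 3 were negative and 3 positive, and of the astrocyte markers 4 and 2, with medians of -0.05 and -0.00149. The part of these markers in the values of the ribosomal proteins was not tested.

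Among single genes in the stress comparisons, RPL12, which lies at the base of the stalk, was among the 3 smallest p-values in both regions. It stood at 1010, 653 and 562 CPM in dorsal stress libraries, against 1112, 870 and 928 CPM in dorsal control, and at 788, 856 and 555 CPM in ventral stress, against 1248, 1059 and 561 CPM in ventral control. The groups overlapped in both regions. Its log2 fold change was -0.39 ± 0.32 in dorsal and -0.38 ± 0.32 in ventral tissue (edgeR adjusted p = 1 for both). RPL37A had the lowest value in dorsal tissue, -0.89 ± 0.67, and RPL6 -0.22 ± 0.18. RPS24 and RPS6 had -0.49 ± 0.40 and -0.43 ± 0.36 in ventral tissue, where the RPS26 row 443468 had the lowest, -0.89 ± 1.04, and RPS21 the next, -0.70 ± 0.64. The highest values were 0.08 ± 0.30 for RPS3 and 0.07 ± 0.20 for RPL15 in dorsal tissue and 0.16 ± 0.16 for RPL7L1 and 0.12 ± 0.20 for RPL15 in ventral tissue. Every one of these had an edgeR adjusted p of 1.

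The stress effect was not shown to differ between regions. The difference, dorsal minus ventral, had a median of 0.09 over the members and 0.05 over all genes, with 56 members and 58.8% of all genes above 0. In edgeR 0 members were called, against 0% of all genes, and 0 had an unadjusted p under 0.05, against 0.258%. DESeq2 and limma-voom also called 0, with 0 members at an unadjusted p under 0.05. The smallest unadjusted p belonged to RPL7L1 (-0.28 ± 0.22, edgeR adjusted p = 1). The regional and stress comparisons share libraries, so their values are not independent of each other.

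The other translation lists held no called gene in any of these comparisons. Over both conditions the median regional log2 fold change was 0.09 for the elongation and TOP list (0 of 19 called), 0.03 for initiation factors (0 of 39), 0.09 for ribosome assembly (0 of 35), -0.04 for TOR and S6 kinase regulation (0 of 24) and -0.01 for mitochondrial ribosomal proteins (0 of 74). Under stress the medians of mitochondrial ribosomal proteins were -0.15 in dorsal and -0.11 in ventral tissue, and those of the elongation and TOP list -0.03 and -0.07. MYCN, a transcription factor that drives ribosome synthesis, had 11.8, 13.0 and 12.1 CPM in dorsal control, against 8.46, 6.65 and 5.46 CPM in ventral control libraries, the smallest p of these lists in any comparison (0.84 ± 0.22, edgeR adjusted p = 0.136). None of the differences between these lists and the ribosomal proteins was tested.

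Placeholder rows matched to member symbols by GeneID in a RefSeq table added little. RPL23 (GeneID 101121360), a large subunit protein that also binds MDM2 in human cells, stood at 132, 128 and 177 CPM in dorsal stress libraries, against 212, 69.4 and 89.7 CPM in dorsal control. In ventral libraries it stood at 156, 81.7 and 131 CPM under stress, against 148, 152 and 62.7 CPM in control. RPL34 (GeneID 780467) had 12 to 62 counts, and RPL10L (GeneID 101120838), a copy that acts in the testis of mice, had 0 counts in all libraries.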

How the data were processed

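Gene counts of 12 polyadenylated RNA libraries (TruSeq stranded mRNA kit, per the labels' protocols) were used as the authors deposited them, unnormalized. The submitters' processing notes name featureCounts 2.0.0 beside SAMtools 1.9, TopHat2 2.1.1 with Bowtie2 2.3.5.1, FastQC and bcl2fastq 2.20. Build, annotation, strand setting and the treatment of multiply matching reads are not given in sources used here, so close copies and antisense genes cannot be told apart. Each column was assigned through its name, found in a sample description. Of the 78 member IDs, 76 were in a RefSeq table of ARS-UI_Ramb_v3.0, used for names only. No sequences or transcript lengths were used.

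All genes were fitted together in R 4.3.3 with edgeR 4.0.16 (filterByExpr, TMM, robust quasi-likelihood F test, 1 mean for each of the 4 groups), with Benjamini-Hochberg adjustment over the 17806 genes tested and calls at an adjusted p under 0.05. SE is the absolute log2 fold change over the square root of F. Log2 CPM used a prior count of 2. Libraries of both regions shared ewes but were fitted as independent. The interval on a share covers counting error only. The fit was tested on simulated data. Alternatives were RLE factors, 2 other filters, DESeq2 1.42.0, limma-voom (limma 3.58.1), a replicate block, thinned counts, library sizes without the members, fits of the compared groups alone, principal component covariates and leaving out each library.

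Members, lists and comparisons were chosen with earlier results of these data known. Named were members called in any fit and those with the 3 smallest p, 2 highest and 2 lowest values in a comparison. Members with extreme spread and a fixed set of stalk, paralog, X-linked and regulatory members were named too. EEF1A1, EEF1D, EEF2, FAU, RACK1, EIF4E, EIF4EBP1, EIF4EBP2, TTR and GFAP were named after their values were seen, as was RPL7L1 as a paralog. Naming by level per length was left out, and some genes that the rule would name are not reported here. Same-numbered libraries of stress and control came from different ewes, yet their within-group deviations correlated at 0.285 to 0.712 in dorsal and 0.241 to 0.787 in ventral tissue; across regions values ran from -0.233 to 0.761. No 2 libraries of a group agreed within sampling noise (smallest chi-square per degree of freedom 19.7).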

Additional observations from a re-analysis of the deposited data

How the results depend on the processing

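The count of called members was 0 under every alternative but the component covariates. With the first within-group component as a covariate it was 8 over both conditions and 3 in control ewes, all higher in dorsal tissue; with the component over all libraries, chosen after seeing the data, it was 2 and 1. RPL5 passed in all 4 of these fits (0.21 and 0.28, then 0.20 and 0.27 on the log2 scale). The first within-group component was taken within groups and removes spread but not a group difference. The component over all libraries was not, so it can also take up a group difference. The fits do not count the degrees of freedom that estimating a component took. With the replicate block 0 members were called in each of the 6 comparisons, with medians of 0.11, 0.11 and 0.12 between regions (both conditions, control, stress), -0.24 and -0.18 under stress in dorsal and ventral tissue and -0.01 for the difference, a change of sign in the last, which limma-voom (-0.01) and both component covariates (-0.01 each) also gave. Leaving out each library in turn gave 0 called members throughout. Medians ran from -0.10 to 0.25 between regions, -0.30 to 0.38 in control, -0.20 to 0.34 in stress, -0.53 to 0.08 for stress in dorsal, -0.60 to 0.07 in ventral tissue and -0.25 to 0.40 for the difference. With counts thinned to one depth the stress medians were -0.20 and -0.28. The median within-group SD was 0.544 with TMM, 0.547 with RLE factors and 0.494 with library totals. Each group had 3 pools, and the part of depth in the precision was not tested. Counts were lowest for RPL3L, at 7 to 64, and the RPS26 row 443468 had 30 in ventral stress library 2.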
